A study of Mus musculus with 6 samples.

Results

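The synaptic vesicle and release machinery was followed through 41 genes. They were selected by symbol for their known place in the presynaptic terminal, with earlier results of these data already known. All 41 are among the 50508 gene symbols listed per library. Libraries of 3' ends of polyadenylated RNA came from primary mouse neurons of newborn C57Bl/6J pups, 3 treated with sgLacZ and 3 with sgKcna1, which the study calls Ctrl-dCas9A and Kcna1-dCas9A. Both groups received lentivirus carrying an inactive Cas9 that carries the VP160 activation domain and is driven by the Ef1alpha promoter, so they differed in the guide: LacZ, a bacterial gene without a target in the mouse, or the promoter of Kcna1, which encodes the potassium channel Kv1.1. Nothing in the labels says whether the libraries of a group came from separate cultures. The study states at least 3 independent repetitions for its experiments in general, without naming these libraries. The p-values therefore measure the spread between these libraries, which may be technical. The labels name hippocampus as the tissue region, whereas the study's methods name cortical neurons, and both hippocampal (Prox1, Zbtb20) and cortical (Cux2, Fezf2) marker genes were above 0 in every library, while C1ql2 of the hippocampal and Foxp2 of the cortical list were at 0 in 3 of 6.

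Neurotransmitter is packed into synaptic vesicles by transporters, the vesicles are held near the plasma membrane by Rab3 and the active zone scaffold, and fusion is carried out by the SNARE proteins synaptobrevin, SNAP-25 and syntaxin when synaptotagmins bind calcium. NSF and its SNAP adaptors then take the SNARE complexes apart, and dynamin, amphiphysin and synaptojanin take part in retrieving the vesicle membrane. Kv1.1 sits on axons and terminals, where it shortens depolarization and limits release.

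The deposited values are whole numbers per gene that sum to between 999047 and 999717 per library, and are read here as values per 1000000 that the authors rounded. The number of reads is unknown, so no counting intervals are given, and a value is a level within its library that is not divided by gene length. Between 14788 and 15417 genes were above 0 per library. A single predicted gene, Gm42418, held 16.3% to 19.5% of the total in sgLacZ and 15.3% to 20.2% in sgKcna1. Kcna1, the targeted gene, was at 16 in each of the 3 sgLacZ libraries and at 68, 47 and 65 in sgKcna1. Its ratio of group means was 3.75 and its log2 fold change 1.83 (SE 0.16, limma adjusted p = 0.034), while the exact two-sided permutation test gave p = 0.1, the smallest that 3 against 3 libraries allow. The limma call was lost when any library other than sgLacZ replicate 3 was left out (adjusted p from 0.11 to 0.14). All log2 fold changes below are sgKcna1 minus sgLacZ on the log2(value + 1) scale, fitted with limma and adjusted over 19504 genes above 0 in at least 1 library.

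Most of the 41 members were listed somewhat higher in sgKcna1, and a small group that includes Snap25, Nsf, Syt11 and Syn2 was listed lower. This holds for the listed members, since 87 other presynaptic genes tested below had a median log2 fold change of 0.01. Of the 41 members, 31 had a log2 fold change above 0 and 10 below 0, with a median of 0.17 against -0.02 over all genes tested. Among the 37 members whose mean value was at least 10, the median was 0.20, against -0.06 for the 8050 genes above that level. The fold changes ran from -0.58 for Nsf to 1.14 for Vamp2. In 17 members all 3 sgKcna1 values were above all 3 sgLacZ values, and in 4 members they were all below. All 21 of these members had a mean of at least 10, a level at which 39.8% of genes were separated, 15.9% with sgKcna1 higher and 23.9% with sgKcna1 lower. The 17 of 37 are a larger share than the first of these and the 4 of 37 a smaller share than the second, which is given as a description without a test. The split over all genes depends on the scaling. After median-of-ratios rescaling it was 23.2% higher and 20% lower, with 23 of the 37 members separated in either direction.

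No member passed the adjusted threshold of 0.05 in limma, where 226 of 19504 genes did (1.16%; 68 or 0.349% higher and 158 or 0.81% lower). At an unadjusted p under 0.05, 15 members were higher and 4 lower, beside 9.59% and 13.6% of all genes (23.2% in either direction). All 19 had a mean of at least 10, where the shares over all genes were 16.1% higher and 23.6% lower (39.7% in either direction). Several members lay just outside the threshold: Snap25, Syt4, Nsf, Vamp2 and Cplx1 had adjusted p from 0.053 to 0.058. After median-of-ratios rescaling, 8 members passed as higher and 2 as lower, where 1721 genes (8.82%) passed, 963 (4.94%) as higher and 758 (3.89%) as lower. On genes with a mean of at least 10 alone, 7 members passed as higher and 3 as lower, where 28.4% of genes passed, 11.4% as higher and 17% as lower.

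**Figure D1:**
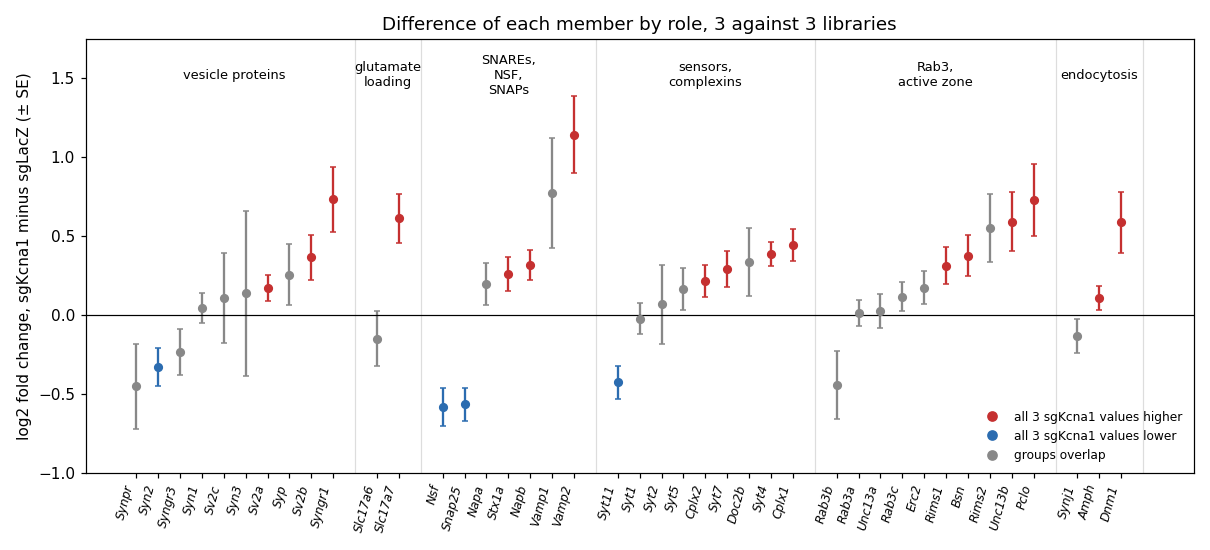
Log2 fold change of each of the 41 members (sgKcna1 minus sgLacZ, log2(value + 1) scale, points with ± SE from limma, 3 libraries per group), grouped by role on the horizontal axis and coloured by whether the 3 values of one group all exceed those of the other. In all, 17 members are separated with sgKcna1 higher and 4 with sgKcna1 lower, and the extremes are Vamp2 at 1.14 and Nsf at -0.58.

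One control library stood apart, among the members as in the calls over all genes. Among the 31 members with a positive log2 fold change, sgLacZ replicate 3 was the highest control in 19. Among the 10 with a negative one it was the lowest control in 8, so that its values lay on the side of the sgKcna1 libraries. These counts were not made over all genes, so they are not read as a trait of the members. Without it, 8 members passed as higher and 3 as lower, where 2711 genes (14.2%) passed, 6.06% as higher and 8.12% as lower. Without any one of the other 5 libraries, no member and no gene passed. Leaving out 1 library moved the log2 fold change of 17 members by more than 1.5 times, all of them members whose groups overlapped, and turned its sign in Syn3, Sv2c, Syt1, Syt2, Rab3a and Unc13a.

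Promoters are shown for the members with the most positive and the most negative fold changes among those whose groups were separated and whose symbol matched the promoter table used here, to set the start of each gene beside its values. Vamp2, Snap25, Syt4 and Syt7 were separated but not matched, so their promoters are not shown. Each is 250 bases before to 50 bases after the transcription start in RefSeq on GRCm38.p6, printed 5′ to 3′ on the strand of the gene, with capitals marking GC boxes (GGGCGG or its reverse complement). Syngr1 is at chr15:80091084-80091383 on the plus strand and Pclo at chr5:14514668-14514967 on the plus strand, both of them higher in the 3 sgKcna1 libraries. Nsf is at chr11:103954007-103954306 on the minus strand and Syt11 at chr3:88772550-88772849 on the minus strand, both of them lower in the 3 sgKcna1 libraries.
Syngr1: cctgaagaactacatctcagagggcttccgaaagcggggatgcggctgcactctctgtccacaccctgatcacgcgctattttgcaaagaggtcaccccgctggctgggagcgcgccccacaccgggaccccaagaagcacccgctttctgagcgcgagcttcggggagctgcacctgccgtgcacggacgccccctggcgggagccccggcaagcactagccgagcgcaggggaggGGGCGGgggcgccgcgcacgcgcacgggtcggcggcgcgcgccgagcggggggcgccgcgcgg
Pclo: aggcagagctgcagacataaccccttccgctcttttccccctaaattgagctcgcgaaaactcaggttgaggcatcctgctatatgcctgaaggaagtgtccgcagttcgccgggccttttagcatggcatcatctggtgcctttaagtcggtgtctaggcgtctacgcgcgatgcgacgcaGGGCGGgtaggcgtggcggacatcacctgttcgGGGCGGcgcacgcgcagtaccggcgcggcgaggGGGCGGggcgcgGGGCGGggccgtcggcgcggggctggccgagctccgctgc
Nsf: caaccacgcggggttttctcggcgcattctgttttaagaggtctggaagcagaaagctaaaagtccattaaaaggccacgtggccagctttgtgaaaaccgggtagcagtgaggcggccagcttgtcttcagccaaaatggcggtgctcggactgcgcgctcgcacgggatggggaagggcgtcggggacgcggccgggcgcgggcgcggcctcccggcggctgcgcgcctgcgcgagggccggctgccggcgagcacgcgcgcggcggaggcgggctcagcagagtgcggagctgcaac
Syt11: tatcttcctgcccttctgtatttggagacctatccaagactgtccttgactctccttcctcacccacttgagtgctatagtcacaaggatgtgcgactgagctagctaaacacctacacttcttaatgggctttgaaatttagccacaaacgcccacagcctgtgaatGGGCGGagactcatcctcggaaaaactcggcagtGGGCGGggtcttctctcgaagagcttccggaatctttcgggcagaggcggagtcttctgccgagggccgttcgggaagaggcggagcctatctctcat

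The higher pair held 1 GC box (Syngr1) and 4 GC boxes (Pclo), and the lower pair held none (Nsf) and 2 (Syt11), so the letters did not separate the directions in these 4 promoters. The RefSeq table used here was matched by 32 of the 41 members, and 26 of the 32 had a GC box in at least 1 promoter. Counted by promoter, 27 of 42 member promoters (64.3%) held the GC box, beside 35.7% of all 32851 promoters searched on both strands. CCAAT was in 23.8% of member promoters against 37.4% of all, and TATAAA in 7.14% against 13.6%, the latter at Rab3b and Sv2b. The median GC content was 61.7% for member promoters and 52.7% for all promoters. A match is a run of letters and not a measured binding site.

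Of the 10 vesicle membrane and coat genes, 3 were higher in all sgKcna1 libraries, 1 was lower in all of them, and 6 overlapped. Syngr1, which encodes the vesicle membrane protein synaptogyrin 1, was at 45, 62 and 80 in sgLacZ and at 93, 104 and 108 in sgKcna1. The groups did not overlap, although the controls were widely spread, and the ratio of means was 1.63 with a log2 fold change of 0.73 (SE 0.20, adjusted p = 0.087). Sv2b, a vesicle glycoprotein of the SV2 family, was at 27, 24 and 24 against 28, 33 and 37, a gap of 1 unit between the groups and a log2 fold change of 0.37 (SE 0.14, adjusted p = 0.18). Sv2a, the widely expressed SV2 protein and the binding site of the antiseizure drug levetiracetam, was at 186, 183 and 188 against 217, 199 and 212. Its controls were tightly grouped and all below the sgKcna1 values, with a log2 fold change of only 0.17 (SE 0.08, adjusted p = 0.26).

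Syn2 ran the other way. This gene for synapsin 2, a phosphoprotein that tethers vesicles in the reserve pool, was at 144, 160 and 128 in sgLacZ and at 112, 126 and 105 in sgKcna1. The groups were separated by 2 units, and the log2 fold change was -0.33 (SE 0.12, adjusted p = 0.16). Its relative Syn1, at 62 to 67 in sgLacZ and 65 to 69 in sgKcna1, had a log2 fold change of 0.04 with a 95% interval from -0.18 to 0.26. Syp, for synaptophysin, ranged from 67 to 108 in sgLacZ and from 89 to 105 in sgKcna1, with the highest control above every sgKcna1 library. Syngr3 and Synpr had log2 fold changes of -0.23 and -0.45 with overlapping groups. Syn3 and Sv2c were listed at 6 or less in every library, where rounding leaves few distinct values.

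**Figure D2:**
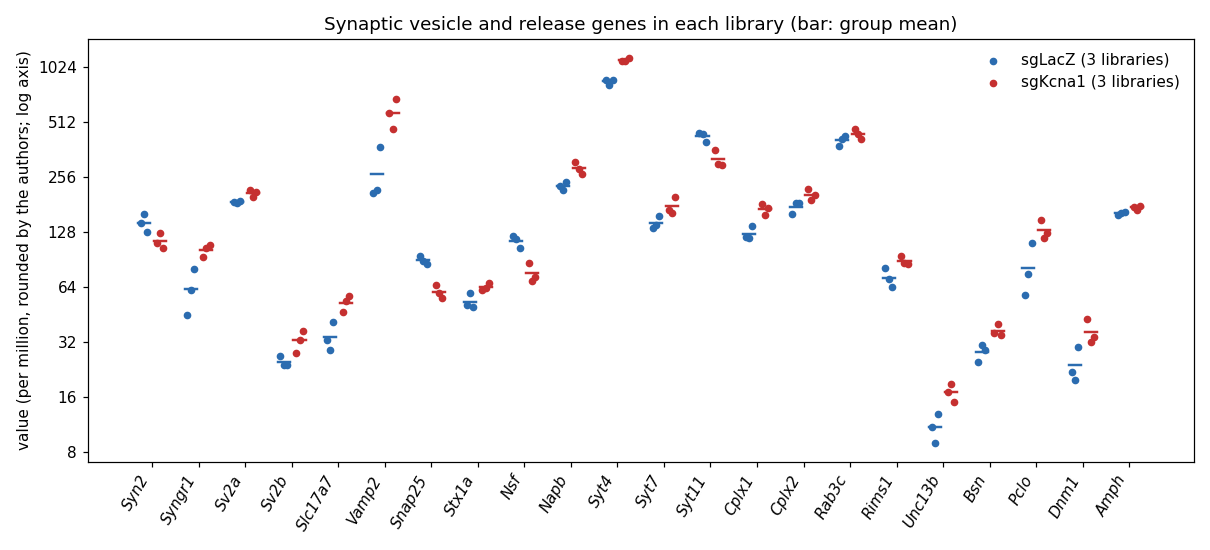
Deposited value (per 1000000, rounded by the authors, log axis) of 22 members in each of the 3 sgLacZ and 3 sgKcna1 libraries, with bars at the group means. Vamp2, Syngr1 and Pclo show 1 sgLacZ library close to the sgKcna1 values, whereas Snap25, Nsf and Syt11 lie lower in all 3 sgKcna1 libraries.

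The pair of vesicular glutamate transporters differed from each other. Slc17a7, which encodes VGLUT1, was at 33, 29 and 41 in sgLacZ and at 47, 54 and 57 in sgKcna1. All sgKcna1 values were above the controls, the ratio of means was 1.53 and the log2 fold change was 0.61 (SE 0.16, adjusted p = 0.073). Slc17a6, which encodes VGLUT2, was at 30, 24 and 33 against 26, 30 and 22, so that its groups overlapped, with a log2 fold change of -0.15 (95% interval from -0.56 to 0.26). Within each library, the ratio of Slc17a7 to Slc17a6 was 1.10, 1.21 and 1.24 in sgLacZ and 1.81, 1.80 and 2.59 in sgKcna1, values that do not overlap and that do not depend on how a library was scaled. This ratio and the others given below were chosen after the values were seen, carry no test, and compare libraries rather than amounts of transcript of different genes. The 8 excitatory neuron markers summed to 1997 to 2190 in sgLacZ and 1943 to 2175 in sgKcna1, which overlap, although Camk2a, Nrgn and Gria1 were higher without overlap (log2 fold changes of 0.62, 0.53 and 0.22) and Neurod6 was lower without overlap (-0.40).

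Among the 7 genes of SNARE fusion and disassembly, the directions differed: 3 were higher and 2 lower without overlap. Vamp2, for the vesicle SNARE synaptobrevin 2, was at 208, 217 and 371 in sgLacZ and at 573, 466 and 678 in sgKcna1. The lowest sgKcna1 value exceeded the highest control, which was sgLacZ replicate 3, and the ratio of means was 2.16, with a log2 fold change of 1.14 (SE 0.24, adjusted p = 0.056). Vamp1, its less abundant relative in forebrain, stayed at 9 or less in every library. Snap25, for the palmitoylated target-membrane SNARE, was at 94, 89 and 86 in sgLacZ and at 66, 59 and 56 in sgKcna1. Its groups were separated by 20 units with little spread inside each, and the log2 fold change was -0.57 (SE 0.10, adjusted p = 0.053). Stx1a, for the syntaxin that pairs with SNAP-25, was at 51, 59 and 50 against 62, 63 and 67, higher in all 3 sgKcna1 libraries with a log2 fold change of 0.26 (SE 0.11, adjusted p = 0.21).

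The disassembly genes also split. Nsf, for the ATPase that separates used SNARE complexes, was at 122, 117 and 105 in sgLacZ and at 87, 69 and 73 in sgKcna1. All sgKcna1 values were lower, with a log2 fold change of -0.58 (SE 0.12, adjusted p = 0.056). Napb, for the brain-enriched adaptor beta-SNAP that recruits NSF, was at 229, 216 and 241 against 307, 284 and 264, higher in every sgKcna1 library with a log2 fold change of 0.32 (SE 0.09, adjusted p = 0.10). The related adaptor Napa overlapped between groups, with a log2 fold change of 0.20. The ratio of Nsf to Napb was 0.533, 0.542 and 0.436 in sgLacZ and 0.283, 0.243 and 0.277 in sgKcna1, and that of Vamp2 to Snap25 was 2.21, 2.44 and 4.31 against 8.68, 7.90 and 12.1. Both ratios were separated between the groups. Of 11 ratios between members that were computed, 8 were separated and 3 overlapped: Vamp2 to Stx1a, Rims1 to Rims2 and Sv2a to Sv2b. The share of separated ratios over other gene pairs was not computed. Several pairs, such as Vamp2 with Snap25 and Nsf with Napb, join a gene separated as higher with one separated as lower. The count of 8 is therefore not read as a result about the members.

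Of the 9 calcium sensors and complexins, 4 were higher and 1 was lower in all sgKcna1 libraries. Syt4, for an atypical synaptotagmin of secretory and dense-core vesicles, was at 861, 817 and 869 in sgLacZ and at 1092, 1105 and 1139 in sgKcna1. The spread inside each group was small beside the gap of 223 units between them, and the log2 fold change was 0.39 (SE 0.08, adjusted p = 0.055). Syt11, its closest relative, was at 446, 439 and 399 against 358, 301 and 298, lower in all 3 sgKcna1 libraries with a log2 fold change of -0.43 (SE 0.10, adjusted p = 0.066). The ratio of Syt4 to Syt11 was 1.93, 1.86 and 2.18 in sgLacZ and 3.05, 3.67 and 3.82 in sgKcna1, so the relatives were offset in opposite directions in every sgKcna1 library.

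Syt1, the main fast calcium sensor of forebrain synapses, was at 388 to 408 in sgLacZ and 351 to 420 in sgKcna1. Its groups overlapped, and the log2 fold change of -0.02 had a 95% interval from -0.25 to 0.20. Syt7, the slow high-affinity sensor, was at 135, 139 and 157 against 168, 163 and 198, separated by 6 units with a log2 fold change of 0.29 (SE 0.11, adjusted p = 0.17). Cplx1, for a complexin that clamps and promotes SNARE-driven fusion, was at 120, 118 and 138 against 181, 159 and 172. All sgKcna1 values were higher, with a log2 fold change of 0.44 (SE 0.10, adjusted p = 0.058). Cplx2, the other forebrain complexin, was at 160, 183 and 185 against 219, 191 and 203, with a narrower gap and a log2 fold change of 0.22 (SE 0.10, adjusted p = 0.26). Syt5 and Doc2b overlapped, with log2 fold changes of 0.17 (0.05 to 0.28 with 1 library left out) and 0.34 (0.14 to 0.54), and Syt2 stayed at 5 or less.

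The 10 Rab3 and active zone genes had 4 members higher in all sgKcna1 libraries and none lower in all. Pclo, for the scaffold piccolo, was at 58, 75 and 111 in sgLacZ and at 148, 119 and 127 in sgKcna1. The lowest sgKcna1 value was 8 units above sgLacZ replicate 3, and the log2 fold change was 0.73 (SE 0.23, adjusted p = 0.11). Bsn, for the related scaffold bassoon, was at 25, 31 and 29 against 36, 40 and 35, with a log2 fold change of 0.38 (SE 0.13, adjusted p = 0.14). Rims1, for a Rab3-binding organizer of release sites, was at 81, 71 and 64 against 95, 87 and 86, with a log2 fold change of 0.31 (SE 0.12, adjusted p = 0.16). Unc13b, for the priming factor Munc13-2, was at 11, 9 and 13 against 17, 19 and 15. These groups were separated at a low level, with a log2 fold change of 0.59 (SE 0.19, adjusted p = 0.12).

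The groups of the other priming factor and of the vesicle GTPases overlapped. Unc13a, for Munc13-1, ranged from 69 to 80 in sgLacZ and from 70 to 81 in sgKcna1, with a log2 fold change of 0.03 (95% interval from -0.23 to 0.28). Rab3a, the main vesicle GTPase of neurons, had a log2 fold change of 0.01 (95% interval from -0.18 to 0.21). Rab3c was at 379, 412 and 430 against 469, 440 and 414, overlapping groups with a log2 fold change of 0.12 (SE 0.09, adjusted p = 0.51). Rab3b was the one gene of this role below 0, with a log2 fold change of -0.44 and overlapping groups. Rims2 and Erc2 had log2 fold changes of 0.55 and 0.17, and in each a control library reached a value found in sgKcna1.

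Of the 3 endocytosis genes, Dnm1 and Amph were higher in every sgKcna1 library. Dnm1, for the neuronal dynamin that cuts vesicles from the membrane, was at 22, 20 and 30 against 43, 32 and 34, with a ratio of means of 1.51 and a log2 fold change of 0.59 (SE 0.19, adjusted p = 0.12). Amph, for the amphiphysin that brings dynamin to the neck of the forming vesicle, was at 159, 162 and 164 against 176, 169 and 178. Its replicates were so close that an offset of 0.11 (SE 0.08, adjusted p = 0.47) was enough to separate the groups. Synj1, for the lipid phosphatase that uncoats vesicles, overlapped, with a log2 fold change of -0.13.

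**Figure D3:**
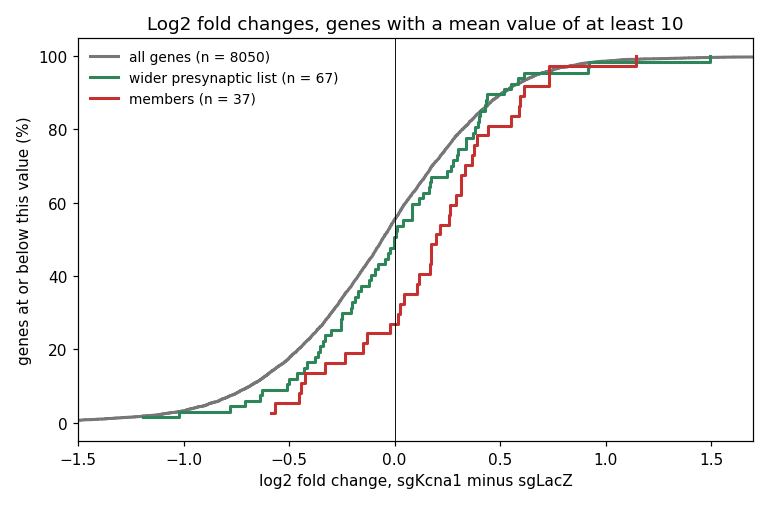
Cumulative share (vertical axis, percent) of log2 fold changes (horizontal axis, sgKcna1 minus sgLacZ) for genes whose mean value is at least 10: all 8050 genes, 67 genes of a wider presynaptic list and 37 members. The curve of the members lies to the right, with a median of 0.20 against -0.06 for all genes, whereas the wider list has a median of 0.00.

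A wider list of 91 other presynaptic genes had a median close to 0. Of its 87 genes tested, 45 had a log2 fold change above 0 and 42 at or below 0, with a median of 0.01. Ston1, counted in the 42, had the same values in both groups and a log2 fold change of 0. None passed the adjusted threshold in limma. At an unadjusted limma p under 0.05, 17 were higher and 13 lower, beside 9.59% and 13.6% of all genes tested. The groups were separated in 15 with sgKcna1 higher and in 11 with sgKcna1 lower, beside 8.98% and 13.3% (22.2% in all). At a mean of at least 10 the separated genes were 14 higher and 11 lower of 67, beside the 15.9% and 23.9% given above. At that level 16 were higher and 12 lower at an unadjusted limma p under 0.05, beside 16.1% and 23.6%. After median-of-ratios rescaling 9 passed as higher and 3 as lower of the 87, beside 4.94% and 3.89% of all genes tested. By role, and with differences between roles not tested, 5 of the 19 other active zone genes were higher and none lower without overlap. Unc13c, among these, was at 5 or less in every library. Of the 25 other endocytosis genes, 3 were higher and 6 lower, beside 15.9% and 23.9% of genes with a mean of at least 10. None of the 13 other calcium sensors tested was separated, of which only 6 had a mean of at least 10.

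Summed over all 41 members, the values were 5145, 5205 and 5510 in sgLacZ and 6282, 5813 and 6194 in sgKcna1, so that every sgKcna1 library was above every control. Without Vamp2 the sums were 4937, 4988 and 5139 against 5709, 5347 and 5516, still without overlap. Syt4, the most abundant member, was at 861, 817 and 869 against 1092, 1105 and 1139. With Syt4 also left out, the lowest sgKcna1 sum lay below the highest control, so the separation rests on these abundant genes. Per 1000000 outside Gm42418, the members took 6361 to 6589 in sgLacZ and 7289 to 7511 in sgKcna1. The neuronal markers were mixed. The 14 pan-neuronal genes summed to 16591 to 17487 in sgLacZ and to 17639 to 20295 in sgKcna1, but without Tubb3, left out after its values were seen, the sums overlapped at 14729 to 14882 against 14418 to 15944. Gene by gene, 6 of the 14 were higher without overlap and 4 (Map2, Elavl3, Elavl4 and Dcx) were lower without overlap. At a mean of at least 10, 15.9% of all genes were higher and 23.9% lower without overlap (8.98% and 13.3% of all genes tested). The sums of dividing and glial cell markers were lower, with 10 astrocyte genes at 961 to 1069 against 702 to 718, 9 oligodendrocyte lineage genes at 72 to 104 against 47 to 51, and 8 cell cycle genes at 117 to 123 against 69 to 73. Not every gene followed its sum: Mbp was higher without overlap (log2 fold change 0.91), Cnp and S100b had log2 fold changes of 0.50 and 0.32 with overlapping groups, and Gfap was at -0.02. The 10 microglial genes summed higher, at 28 to 35 against 61 to 84, with 5 of them higher without overlap, whereas Csf1r, C1qc, Ctss and Tyrobp overlapped at log2 fold changes of 1.19, -0.19, 0.02 and 0.19. P2ry12 of the microglial list and Mog of the oligodendrocyte list were at 0 in all 6 libraries. Of the astrocyte genes 3 passed the threshold as lower, of the oligodendrocyte lineage 1 as lower and of the microglial genes 1 as higher. Over all genes tested, 0.81% passed as lower and 0.349% as higher. The sum of the 8 inhibitory neuron genes overlapped, at 280 to 312 against 279 to 348, with Gad1 and Dlx2 lower and Npy higher without overlap (log2 fold changes of -0.60, -1.12 and 0.74). The part of these markers in the offset of the 41 members was not tested, and in bulk RNA fewer cells of a type cannot be told apart from less RNA per cell.

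**Figure D4:**
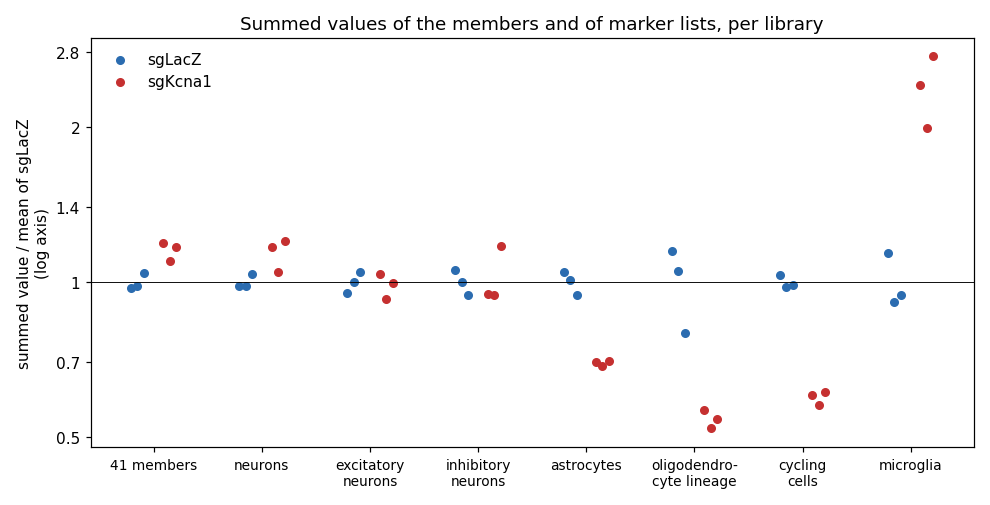
Summed value of the 41 members and of 7 marker lists in each library, divided by the mean of the 3 sgLacZ libraries (log axis, 1 marks the control mean). The members lie higher in all 3 sgKcna1 libraries, but their sums overlap once Vamp2 and Syt4 are both left out. The pan-neuronal sum also lies higher and overlaps without Tubb3, while the excitatory and inhibitory neuron sums overlap. The sums of astrocyte, oligodendrocyte lineage and cycling cell markers lie lower, and that of the microglial markers is higher.

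In the gene annotation of NCBIM37 (GENCODE vM1), 11 of the 41 members share exonic bases with a gene on the opposite strand, among them Sv2b, Syt4, Syt7 and Bsn of the separated members. The study's methods describe the reads as stranded, but whether they were counted by strand is not given in the sources used here, so whether reads of these partners entered the values is not known.

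**Figure D5:**
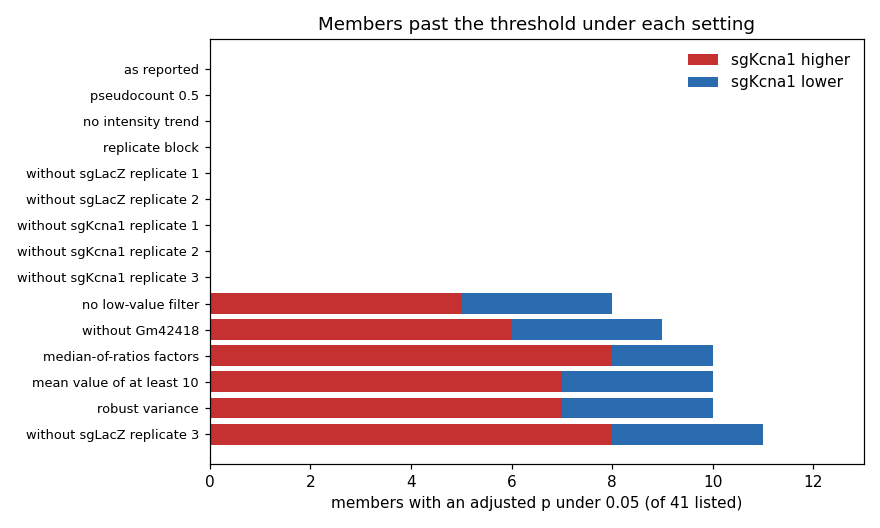
Number of the 41 members with a limma adjusted p under 0.05 (bars, sgKcna1 higher and lower stacked) as reported and under each alternative. The count is 0 as reported and under 8 alternatives, and between 8 and 11 under the other 6, the most when sgLacZ replicate 3 is left out.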

How the data were processed

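RNA of primary mouse neurons was sequenced with a QuantSeq 3' kit in 3 sgLacZ and 3 sgKcna1 libraries. The study's methods name Bowtie2 and NCBI37/mm9, and the submitters' processing notes list STAR 2.7, featureCounts, DESeq2 and mm10; which of these made the deposited values is not given in the sources used here. The deposited score is 1 whole number per gene, with sums between 999047 and 999717 per library, so it was read as scaled by the authors to CPM and then rounded. A count model was not used and depth is unknown.

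Groups came from the sample labels. Log2(value + 1) of the 19504 genes above 0 in at least 1 library was fitted with limma 3.58.1 in R 4.3.3 (intensity trend, group as the only factor, two-sided, Benjamini-Hochberg over all genes tested, threshold 0.05). The fit was tested on simulated data. Ratios of means, ranges and sums used the values as deposited.

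The members, the wider presynaptic list and the marker lists were chosen with earlier results of these data known. Values per library are given for members whose groups do not overlap at a mean of at least 10 and for the member of each role with the highest mean, and other members by range or fold change. Slc17a6 and the ratios between members were added after their values were seen. Alternatives were a pseudocount of 0.5, a mean of at least 10, no low-value filter, no intensity trend, robust variance, median-of-ratios rescaling, removal of Gm42418, the replicate block and each library left out. Promoters came from RefSeq (GRCm38.p6).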

Additional observations from a re-analysis of the deposited data

How the results depend on the processing

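With limma, no member passed as reported, and 10 passed on genes with a mean of at least 10, 10 after median-of-ratios rescaling, 8 without a low-value filter, 10 with robust variance, 9 without Gm42418, and 0 to 11 when 1 library was left out. The 11 came from leaving out sgLacZ replicate 3 (8 higher, 3 lower); leaving out any other library gave 0. Over all genes the count of 226 became 2289, 1721, 2405, 2884 and 1768 under the first 5 of these settings in that order, 10 with a pseudocount of 0.5 (5 higher, 5 lower), 201 without the intensity trend (117 higher, 84 lower), and 0 to 2711 with 1 library left out. In the wider presynaptic list 0 genes passed as reported, and 20, 12, 13, 16 and 12 under those 5 settings, with 0 to 18 when 1 library was left out (18 without sgLacZ replicate 3). The cause was not tested. Without a low-value filter most residual variances were 0, and limma warned that its variance estimates were then unreliable.

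The median log2 fold change of the members was 0.17 as reported, 0.26 after median-of-ratios rescaling and 0.15 to 0.22 with 1 library left out. Rescaling also moved the median over all genes tested, from -0.02 to 0.02, and that over genes with a mean of at least 10, from -0.06 to 0.03. The count of 21 separated members was 21 to 29 under every alternative, a comparison added after seeing the data. The share of all genes with a mean of at least 10 that were separated was 39.8% as reported, 44.2% to 62.4% with 1 library left out, when fewer values are compared, and 43.2% after rescaling; without sgLacZ replicate 3 it was 62.4%, beside 28 of 37 members. Of the 22 members named by rule, all kept their direction under the alternatives, and Syngr1, Slc17a7, Vamp2, Snap25, Nsf, Syt4 and Pclo passed under 6 of 14. Kcna1 had a log2 fold change of 1.83 (adjusted p = 0.11) with the replicate block, and 1.73 to 1.99 with 1 library left out (adjusted p from 0.019 to 0.14).

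Same-numbered libraries correlated by 0.013 to 0.047 in their deviations from the group means and share only a number. With the replicate number as a block, 0 genes and 0 members passed. Reads per library are unknown, so genes listed below 10 carry few distinct values.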

Other observations

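The genes below belong to the wider presynaptic list and were chosen after their values were seen. None passed the adjusted threshold of 0.05 in limma as reported. Of the 22 endocytosis genes in that list with a mean of at least 10, 6 were lower and 3 higher without overlap, beside 23.9% and 15.9% of all genes at that level. Among the lower genes, Dnajc6, for the uncoating cofactor auxilin, was at 40, 33 and 23 in sgLacZ and at 17, 12 and 11 in sgKcna1, with a log2 fold change of -1.19 (SE 0.25, adjusted p = 0.056). Snap91, for the coat assembly protein AP180, was at 159, 138 and 107 against 77, 81 and 73, with a log2 fold change of -0.78 (SE 0.15, adjusted p = 0.055). Hspa8, Sh3gl1, Picalm and Cltc, the last for the clathrin heavy chain, had log2 fold changes of -1.02, -0.50, -0.43 and -0.36. The higher genes were Ap2s1, Sh3gl2 and Clta. Ap2s1, for the small subunit of the AP2 adaptor, was at 75, 66 and 110 against 160, 130 and 180, with a log2 fold change of 0.92 (SE 0.21, adjusted p = 0.056). Sh3gl2, for endophilin A1, and Clta, for a clathrin light chain, had log2 fold changes of 0.44 and 0.25.

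Of the 16 active zone genes in the list with a mean of at least 10, 4 were higher and none lower without overlap, beside 15.9% and 23.9% of all genes at that level. Rimbp2, for a protein that links RIM to calcium channels, was at 20, 29 and 30 in sgLacZ and at 46, 48 and 56 in sgKcna1, with a log2 fold change of 0.92 (SE 0.18, adjusted p = 0.055). Ppfia4 and Ppfia3, for the scaffold proteins liprin-alpha-4 and liprin-alpha-3, had log2 fold changes of 1.496 (SE 0.41, adjusted p = 0.084) and 0.61 (SE 0.18, adjusted p = 0.096). In Ppfia4 the highest control was sgLacZ replicate 3, at 37 beside 12 and 14 in the other control libraries. Erc1 had a log2 fold change of 0.34, and Unc13c, separated at values of 5 or less, one of 0.62.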
